A study of Gallus gallus with 6 samples.

Results

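The genes described here are the splicing factors and ribonucleoproteins of the chicken array, taken as every gene whose symbol begins with SRSF, SNRP, HNRNP, PRPF, SF3A, SF3B or with LSM and a digit. Of the 13009 genes that have a probe set of their own on the array, 62 fell under this rule, and they were measured by 163 of the 27168 probe sets that carry a single symbol. A gene with several probe sets was represented by the one with the highest mean over the 6 arrays, and 45 of the 62 genes had more than 1. The arrays carried RNA of oocytes after ovulation, cut out around the germinal disc (Ov GDR), and of that region in F1 follicles (F1 GDR). F1 follicles are the largest ones before ovulation, and the last group was the granulosa cells around their disc (F1 GCs). The paper states that F1 GDR kept some overlying granulosa cells, which could not be fully separated, whereas Ov GDR was free of them. Both the stage and the cell content thus differ between F1 GDR and Ov GDR. All samples were taken from untreated ISA Brown laying hens aged 60 weeks. Each array carried tissue pooled from 25 hens, and each group had 2 such pools, so that the differences between hens within a pool cannot be seen. The labels call the groups ov, F1 and Gra_F1 and mark the other array of each with the suffix A. Here the array without the suffix is array 1 and that with it is array 2.

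In the nucleus, introns are removed by the spliceosome, which is built on small nuclear RNAs that each carry a ring of Sm proteins or, in the case of U6, of Lsm proteins. SR proteins mark exons for splicing and hnRNP proteins coat the nascent transcript and often oppose them, so that the balance between these families bears on which exons are kept. An oocyte close to ovulation relies largely on stored transcripts, among them those for proteins that the embryo will use, whereas granulosa cells transcribe their steroidogenic genes actively.

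The arrays gave log2 values that the authors had normalized together, and a value was held to be background where it did not exceed the highest of 23 control probe sets of its array, which lay between 2.76 and 3.27. Of the 62 genes 55 were above it on all 6 arrays, and 2, SNRPF and PRPF4, were at or under it in every group. Markers of the sampled cells followed the labels in the main. The oocyte markers DAZL, BTG4, MOS and ZP2 were between 5.36 and 9.05 on the 4 GDR arrays and between 2.25 and 3.85 in F1 GCs, whereas DDX4 and BMP15 were at background in all groups. The summed level of the 7 oocyte markers measured was 9.41 and 10.0 on the log2 scale in Ov GDR, 9.45 and 9.62 in F1 GDR and 5.93 and 5.38 in F1 GCs. That of 11 granulosa markers was 12.2 and 12.0, 13.5 and 13.1, and 14.4 and 14.5, and INHA and NR5A2 were at background in Ov GDR only. Of these 11 markers, 4 were higher in F1 GDR than Ov GDR, and 7 were higher and 1, FOXL2, was lower in F1 GCs than Ov GDR. FOXL2, with a mean of 11.9 in Ov GDR and 10.9 in F1 GCs, carried most of the granulosa sum of Ov GDR. That sum therefore says little about the other granulosa markers in Ov GDR. The summed level of 8 theca and stroma markers was 5.90 and 5.61 in Ov GDR, 6.41 and 7.18 in F1 GDR and 6.48 and 6.56 in F1 GCs. Of these 8 only COL1A2, at background in Ov GDR, was called, at least 4.06-fold higher in F1 GCs against that background (adjusted p = 0.040). The summed level of 7 blood and endothelium markers was 5.95 and 5.71 in Ov GDR, 8.75 and 8.57 in F1 GDR and 9.96 and 9.34 in F1 GCs. CD74, which immune cells express, carried the last of these sums (2.45 and 2.33, 8.61 and 8.17, and 9.89 and 9.21), and none of the other 6 markers was called. The part of these cells in the differences below was not tested, and in bulk samples fewer cells of a type and less RNA per cell cannot be told apart.

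The arrays of Ov GDR were further apart than those of the other groups. For the same 163 probe sets the median gap between both arrays was 0.30 for Ov GDR, 0.17 for F1 GDR and 0.11 for F1 GCs, and the largest gap was 5.74, 2.20 and 1.36. In Ov GDR 12 of them were higher on array 2 by more than 2 and 3 were lower by as much. On array 1 of Ov GDR the control probes for the 3′ end of the actin message exceeded those for its 5′ end by 5.02 on the log2 scale, against 1.53 on array 2 and 2.46 to 3.57 on the other 4 arrays. The same measure for EF1A was 4.51 on array 1 and 1.48 on array 2. Array 1 of Ov GDR therefore stood apart by a measure of RNA integrity, and how far the called differences moved without it is given below. The paper reports that ribosomal RNA of this region seemed degraded after ovulation, up to oviposition, and that mRNA was nearly intact. That state concerns both Ov GDR arrays, and its part in the differences was not tested.

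**Figure D1:**
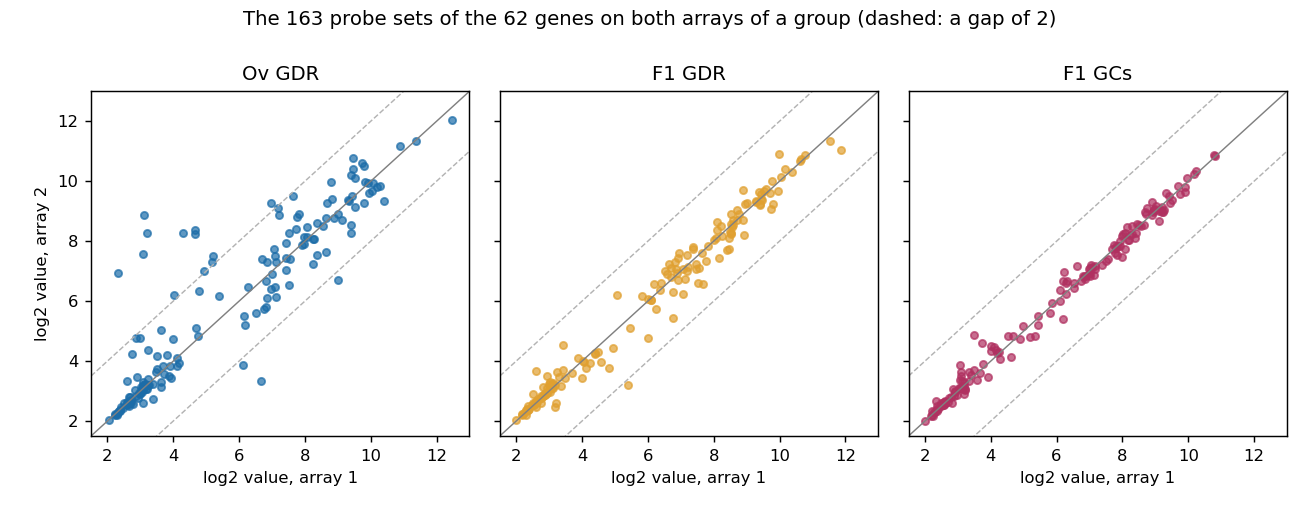
Each panel plots the 163 probe sets of the 62 genes in 1 group, with the log2 value on array 1 along the horizontal axis and that on array 2 along the vertical axis. The points of F1 GCs lie close to the line of equal values, with a largest gap of 1.36, whereas 12 points of Ov GDR lie above the upper dashed line that marks a gap of 2, and the farthest is 5.74 from equality.

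Each pair of groups was tested in limma over all 38439 probe sets, with a Benjamini-Hochberg adjusted p under 0.05 as the threshold for calling a gene. In F1 GDR 4 of the 62 genes were higher than Ov GDR, namely SRSF5, PRPF6, SRSF7L and HNRNPA2B1, and 0 were lower. These are 6.45% of the genes, where 3.05% of the 13009 genes were called higher and 0.2% lower. Such shares, here and below, are not matched for level. On an array 55 to 60 of the 62 genes were above background, but only 36.6% to 51.4% of all probe sets. At an unadjusted p under 0.05 limma gave 8 higher and 5 lower (21% of the genes, beside 22.5% of the 13009), and a plain t-test with the same adjustment gave 0 in either direction. The median difference over the 62 genes was -0.0049 on the log2 scale and that over the 13009 genes was -0.04. The 4 genes called higher in F1 GDR were also called higher in F1 GCs than Ov GDR, and the part of granulosa cells in F1 GDR was not tested.

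Against F1 GCs, 6 of the 62 genes were higher in F1 GDR and 0 were lower. They were SF3A3, SF3B3, SRSF3, SNRPGP15, SRSF1 and LSM3. They make up 9.68% of the genes, beside 4.34% of the 13009 genes called higher and 3.34% called lower. At an unadjusted p under 0.05 limma gave 23 higher and 1 lower (38.7%, beside 26.9% of the 13009), and the plain t-test again called 0. The median difference was 0.35 over the 62 genes and 0.03 over the 13009.

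The largest number of calls came from the comparison of F1 GCs with Ov GDR, in which 6 of the 62 genes were higher in F1 GCs and 12 were lower. The higher ones were SRSF5, PRPF18, HNRNPA2B1, SRSF7L, PRPF6 and HNRNPR, or 9.68% of the genes beside 12.2% of the 13009. The lower ones were LSM12, SNRPN, SF3A3, SRSF1, SRSF3, SNRPGP15, LSM3, SF3B3, PRPF38A, SNRPC, SRSF7 and HNRNPD, or 19.4% beside 10.1%. At an unadjusted p under 0.05 limma gave 8 higher and 20 lower (45.2%, beside 41.5% of the 13009), and the plain t-test with the same adjustment called 3. The median difference over the 62 genes was -0.11, close to the -0.08 of the 13009. All comparisons share arrays, so that they are not independent of each other.

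**Figure D2:**
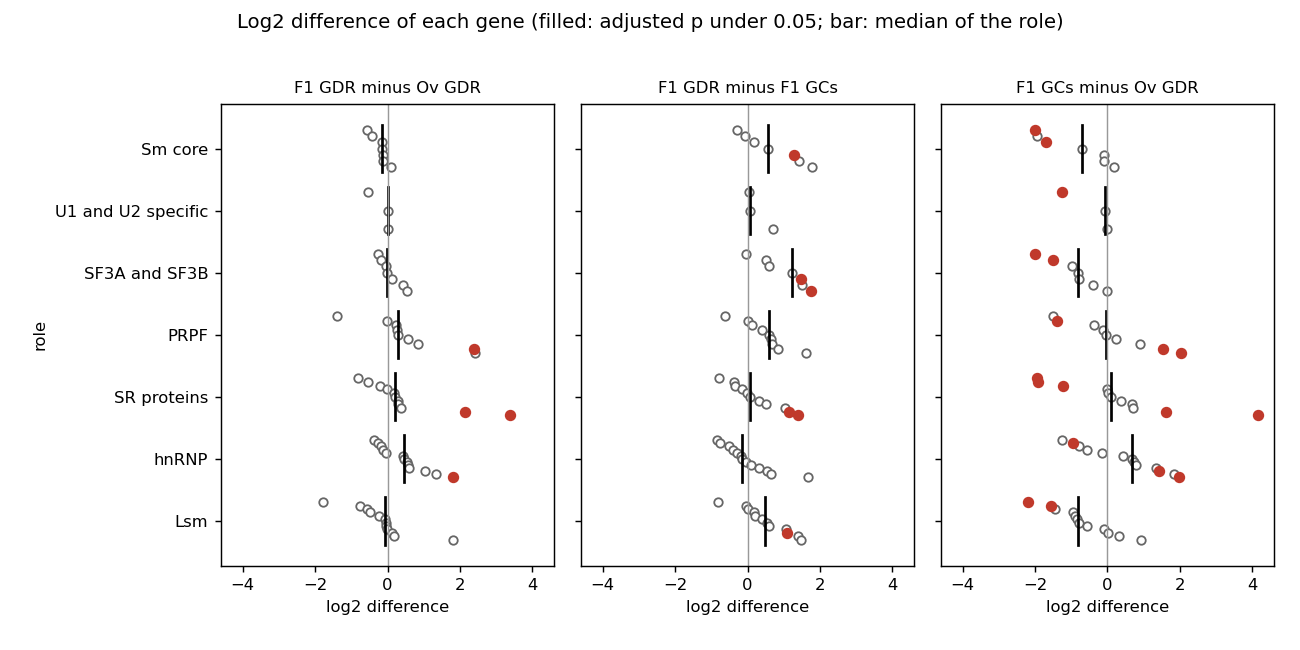
Each point is 1 of the 62 genes, placed by its log2 difference in the comparison named above the panel and sorted by role along the vertical axis. Filled points passed the test, bars are the median of the role, and the filled points lie on the right in the first 2 panels and on both sides in the third, where SRSF5 is farthest to the right at 4.16.

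Without array 1 of Ov GDR all 4, 6 and 18 calls were kept and further genes passed, which gave 5 higher and 1 lower in F1 GDR against Ov GDR (6.69% and 4.74% of the 13009 genes) and 8 higher and 17 lower in F1 GCs against Ov GDR (13.6% and 17.9%). The adjusted p of the kept calls was then 0.016 to 0.024 and 0.0062 to 0.046, and none of their differences moved by more than 0.36. Without array 2 of Ov GDR the 28 calls were again kept, and the counts against Ov GDR became 14 higher and 5 lower (9.74% and 8.27%) and 14 higher and 16 lower (16.6% and 21.9%). In F1 GDR against F1 GCs, 10 genes were higher and 0 lower without array 1 of Ov GDR (7.89% and 5.71%), and also without array 2 (7.8% and 5.68%). Most of the calls were lost when an array of F1 GDR or F1 GCs was left out. The fit then pools its spread from fewer arrays, with more weight on those of Ov GDR. Leaving out an array of F1 GCs cannot move the differences between F1 GDR and Ov GDR, so that calls between those groups were lost through the spread alone. Without an array of Ov GDR the spread is pooled from F1 GDR and F1 GCs only, whose arrays were closer. More of the 13009 genes then passed. Whether a call is kept or lost in these fits therefore cannot decide how firm it is. With each of the 6 arrays left out in turn, the difference between F1 GCs and Ov GDR ran from -2.17 to -1.74 for SRSF1. It ran from -1.99 to -1.87 for SRSF3 and from 4.07 to 4.26 for SRSF5.

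**Figure D3:**
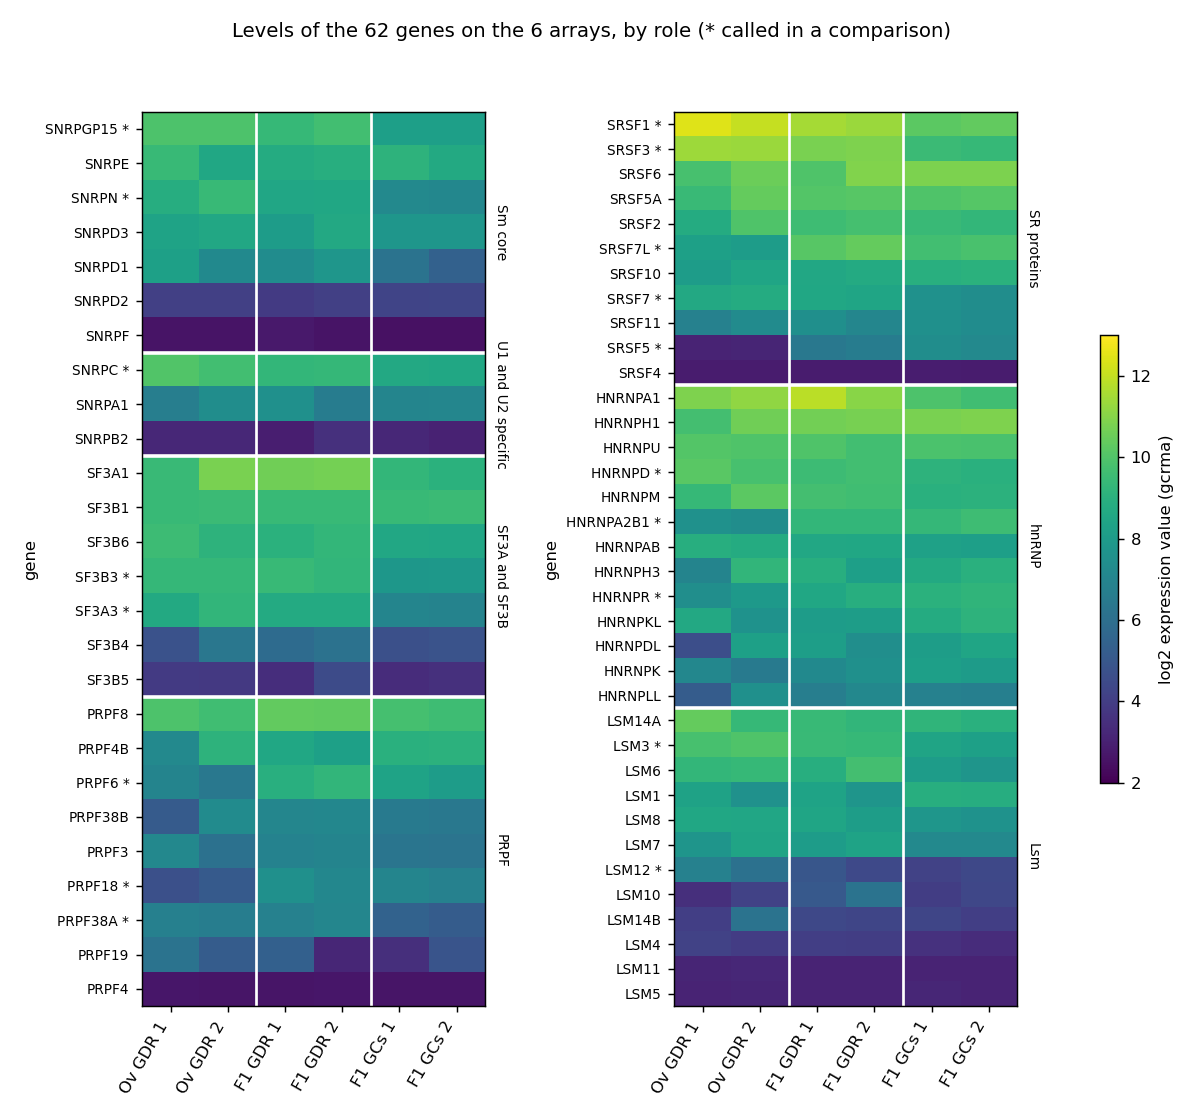
The colour gives the log2 value of each of the 62 genes (rows, grouped by role) on each of the 6 arrays (columns), on a scale from 2 to 13, and an asterisk marks the 18 genes called in at least 1 comparison. SRSF5 is dark on both Ov GDR arrays only, and SRSF1, SRSF3, SF3B3 and SF3A3 are darker on both F1 GCs arrays than on the other 4. Colours compare arrays within a row, since the brightness of different probe sets does not rank their messages.

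Among the 11 SR proteins 2 were higher and 3 lower in F1 GCs than Ov GDR (18.2% and 27.3%, beside 12.2% and 10.1% of the 13009 genes). No other SR protein was called in any comparison, and SRSF5 had the largest difference of all 62 genes. SRSF5 promotes the inclusion of exons to which it binds. Its value was 3.11 and 3.14 on the Ov GDR arrays, 6.40 and 6.61 on those of F1 GDR and 7.38 and 7.20 on those of F1 GCs. Both Ov GDR arrays were at the edge of detection, array 1 under its background of 3.27 and array 2 just over its background of 3.01, and the groups did not overlap. The measured difference from Ov GDR was 3.38 ± 0.26 for F1 GDR (SE, adjusted p = 0.017) and 4.16 ± 0.26 for F1 GCs (adjusted p = 0.0033). With values under background raised to the background of their array, F1 GDR was at least 9.84-fold and F1 GCs at least 16.9-fold higher. The other 2 probe sets of SRSF5 lay between 2.61 and 4.61 on all arrays and were not called. The other chicken gene of this name, SRSF5A, had 9.45 and 10.4 in Ov GDR, 10.1 and 10.1 in F1 GDR and 9.95 and 10.1 in F1 GCs, and none of its differences passed the test.

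SRSF1 and the brightest probe set of SRSF3 were both lowest in F1 GCs. Only this 1 of the 4 probe sets of SRSF3 was called. Over the 4 the difference ran from -1.93 to 1.08 for F1 GCs against Ov GDR and from -0.98 to 1.39 for F1 GDR against F1 GCs. SRSF1 is a classical SR protein that binds exonic enhancers, and SRSF3 also carries spliced messages to the export machinery. SRSF1 measured 12.5 and 12.0 in Ov GDR, 11.5 and 11.3 in F1 GDR and 10.2 and 10.3 in F1 GCs. It was lower in F1 GCs than Ov GDR by 1.96 ± 0.17, so that the log2 difference was -1.96 (3.88-fold lower, adjusted p = 0.0056), and higher in F1 GDR than F1 GCs by 1.15 ± 0.17 (adjusted p = 0.038). The 3 groups of arrays did not overlap, and the Ov GDR arrays were the highest. SRSF3 measured 11.4 and 11.4, 10.8 and 10.9, and 9.50 and 9.38 in the same order. Its differences were -1.93 ± 0.10 for F1 GCs against Ov GDR (adjusted p = 0.0027) and 1.39 ± 0.10 for F1 GDR against F1 GCs (adjusted p = 0.019), and the difference between both kinds of GDR, -0.54, did not pass (adjusted p = 0.088).

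A pair of neighbouring genes, SRSF7 and SRSF7L, differed in opposite directions. RefSeq lists SFRS7, an older name of this exon-binding and export factor, as a synonym of SRSF7L, and places it next to SRSF7 in its assembly GRCg7b. SRSF7 measured 8.65 and 8.77 in Ov GDR, 8.56 and 8.47 in F1 GDR and 7.56 and 7.39 in F1 GCs, and was lower in F1 GCs than Ov GDR (-1.24 ± 0.21, adjusted p = 0.027). SRSF7L measured 8.23 and 8.07, 10.2 and 10.4, and 9.69 and 9.83. It was higher in F1 GDR than Ov GDR by 2.13 ± 0.17 (4.37-fold, adjusted p = 0.019) and higher in F1 GCs than Ov GDR by 1.61 ± 0.17 (adjusted p = 0.0088), with both Ov GDR arrays under all others. Its second probe set, dimmer at 2.72 to 4.90, was also called higher in F1 GCs than Ov GDR (1.77, adjusted p = 0.022), although 1 of its Ov GDR arrays was at background. How far probes for either gene bind messages of the other was not tested. Among the remaining SR proteins, the brightest probe sets of SRSF2, SRSF6, SRSF10 and SRSF11 lay between 6.83 and 10.9. Their differences were at most 0.72 in size, without a call. SRSF4 was between 2.82 and 2.88 on all arrays, at background on both Ov GDR arrays and on 1 of F1 GDR.

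**Figure D4:**
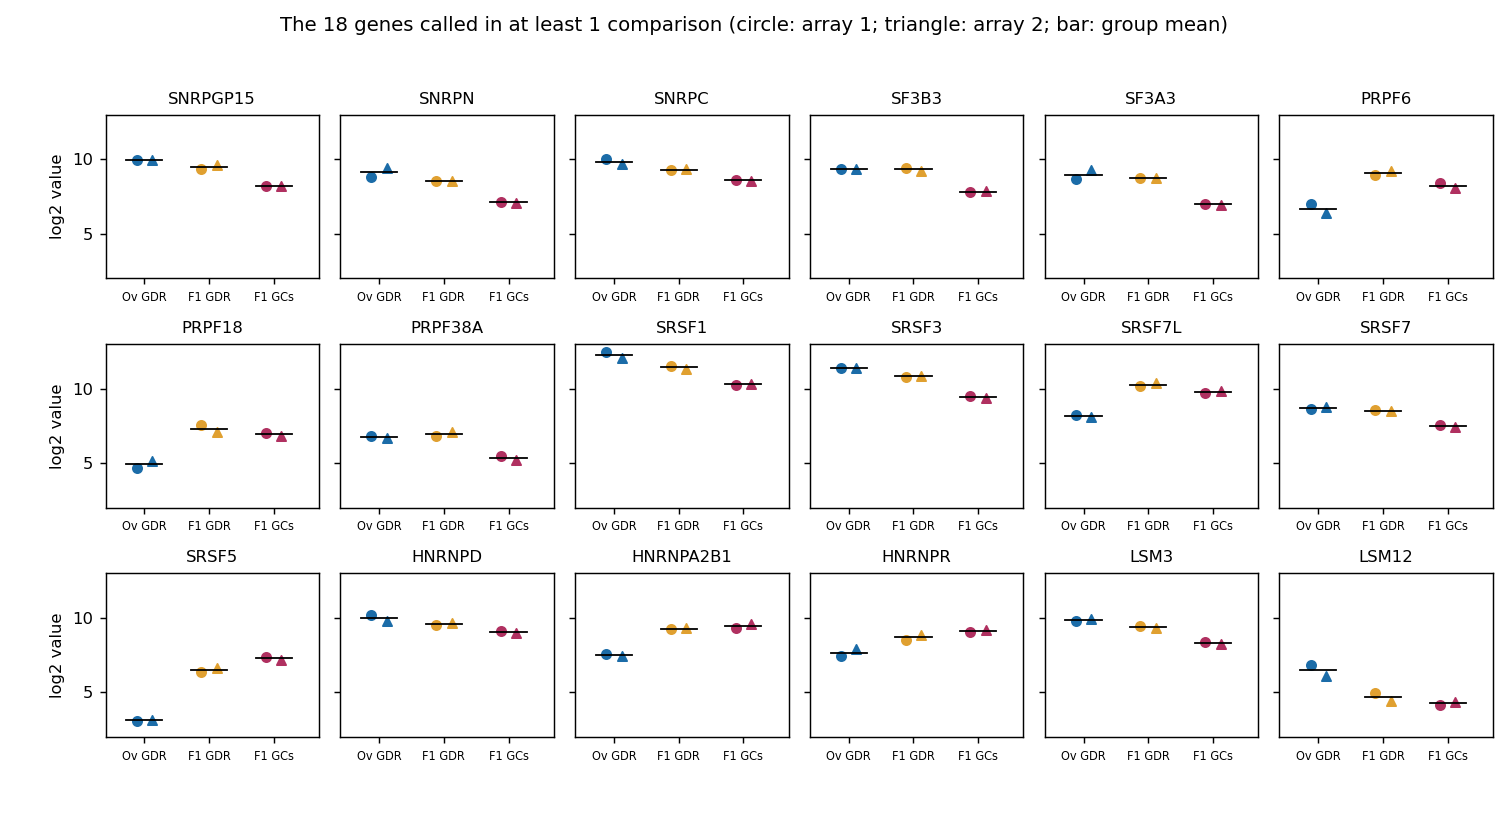
The 18 genes called in at least 1 comparison are shown with the log2 value of every array (circle for array 1, triangle for array 2) by group, and bars mark group means. SRSF5, SRSF7L, PRPF6, PRPF18 and HNRNPA2B1 are lowest in Ov GDR, whereas SNRPGP15, SNRPN, SF3B3, SF3A3, SRSF1, SRSF3 and LSM3 are lowest in F1 GCs.

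The 7 SF3A and SF3B genes encode subunits of the complexes that anchor the U2 particle at the branch point. All 7 had a negative difference between F1 GCs and Ov GDR, and 2 were called there (28.6%, beside 10.1% of the 13009 genes called lower). SF3B3, a scaffold subunit, measured 9.33 and 9.33 in Ov GDR, 9.40 and 9.24 in F1 GDR and 7.80 and 7.85 in F1 GCs. It was higher in F1 GDR than F1 GCs by 1.49 ± 0.18 (2.81-fold, adjusted p = 0.030) and lower in F1 GCs than Ov GDR (-1.50 ± 0.18, adjusted p = 0.011), and the 4 GDR arrays were within 0.16 of each other. Only this 1 of the 5 probe sets of SF3B3 was called, and their differences ran from -1.45 to 1.49 and from -1.50 to 0.23 in these comparisons. SF3A3 measured 8.68 and 9.26, 8.71 and 8.72, and 7.02 and 6.92. F1 GDR exceeded F1 GCs by 1.75 ± 0.28 (adjusted p = 0.044), and F1 GCs differed from Ov GDR by -2.00 ± 0.28 (adjusted p = 0.016). Of the 5 probe sets of SF3A3, 1 was called in the first of these comparisons and 3 in the second. Their differences ran from -0.15 to 1.75 and from -2.08 to 0.16. SF3B1, the subunit that grips the branch point helix in the same complex as SF3B3, stayed between 9.41 and 9.50 on all 6 arrays by its brightest probe set. The difference of that probe set between F1 GCs and Ov GDR was -0.01, with a 95% interval that the fit puts at -0.37 to 0.35. None of the 3 probe sets of SF3B1 was called, but their differences reached 0.63 in that comparison and -1.02 for F1 GDR against F1 GCs. SF3A1 (9.04 to 10.8), SF3B6 (8.52 to 9.52), SF3B4 (4.68 to 6.35) and SF3B5 (3.41 to 4.52) were not called. The median over the 7 genes was 1.24 for F1 GDR against F1 GCs and -0.81 for F1 GCs against Ov GDR.

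The Sm proteins form the ring around most spliceosomal RNAs, and 2 of the 7 measured were called. Both were lower in F1 GCs than Ov GDR (28.6%, beside 10.1% of the 13009 genes). SNRPGP15, for which RefSeq gives SNRPG, the symbol of Sm G, as a synonym, measured 9.93 and 9.93 in Ov GDR, 9.36 and 9.65 in F1 GDR and 8.23 and 8.22 in F1 GCs. It was higher in F1 GDR than F1 GCs by 1.28 ± 0.17 (adjusted p = 0.034) and lower in F1 GCs than Ov GDR (-1.70 ± 0.17, or 3.26-fold, adjusted p = 0.0077). Only 1 of its 5 probe sets was called, and their differences ran from -0.47 to 1.28 and from -1.70 to 0.45 in these comparisons. SNRPN, of which SNRPB, the gene of Sm B, is a RefSeq synonym, measured 8.83 and 9.42, 8.52 and 8.57, and 7.16 and 7.07, and its difference between F1 GCs and Ov GDR was -2.01 ± 0.28 (adjusted p = 0.016). The remaining ring proteins were not called. SNRPE was between 8.55 and 9.41 on all arrays with overlapping groups, and SNRPD3 was between 7.77 and 8.63. SNRPD1 differed by -1.94 ± 0.51 between F1 GCs and Ov GDR, but its arrays were 1.03 apart within Ov GDR and 0.77 within F1 GCs, and the adjusted p was 0.073. SNRPD2 stayed between 3.88 and 4.31, and SNRPF was at background. Of the proteins particular to U1 or U2, SNRPC, the U1 protein that steadies the pairing with the 5′ splice site, was lower in F1 GCs (8.64 and 8.55) than Ov GDR (10.0 and 9.66), by -1.25 ± 0.19 on the log2 scale (adjusted p = 0.020). The U2 proteins SNRPA1 and SNRPB2 had differences under 0.08 in size by their brightest probe sets. SNRPB2 lay near background, between 2.92 and 3.51, with 1 Ov GDR array at background. The arrays of SNRPA1 were 0.72 apart within Ov GDR and 0.90 within F1 GDR.

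PRPF genes encode proteins of the U4/U6.U5 particle and others that activate the spliceosome, and 3 of 9 were called, in different directions. In F1 GCs against Ov GDR 2 were higher and 1 lower (22.2% and 11.1%, beside 12.2% and 10.1% of the 13009 genes). PRPF6, which bridges U5 and U4/U6, measured 6.98 and 6.40 in Ov GDR, 8.95 and 9.23 in F1 GDR and 8.39 and 8.09 in F1 GCs. It was higher than Ov GDR by 2.40 ± 0.31 in F1 GDR (5.26-fold, adjusted p = 0.046) and by 1.55 ± 0.31 in F1 GCs (adjusted p = 0.041). Only 1 of its 3 probe sets was called, and their differences ran from -0.36 to 2.40 and from -0.47 to 1.55 in these comparisons. PRPF18, a factor of the second catalytic step, measured 4.70 and 5.11, 7.54 and 7.10, and 7.01 and 6.85. Its difference was 2.02 ± 0.33 between F1 GCs and Ov GDR (adjusted p = 0.023) and 2.41 ± 0.33 between F1 GDR and Ov GDR, the latter just short of the threshold (adjusted p = 0.051). In both genes the Ov GDR arrays were under all others. PRPF38A, a protein of the precatalytic complex, was lower in F1 GCs (5.45 and 5.22) than Ov GDR (6.81 and 6.66), by -1.40 ± 0.28 on the log2 scale (adjusted p = 0.039), and F1 GDR (6.85 and 7.06) exceeded F1 GCs by 1.62 ± 0.28 (adjusted p = 0.0504). PRPF8, the core of the catalytic centre, was between 9.59 and 10.4 on all arrays and not called. PRPF4B and PRPF38B were each lower on array 1 of Ov GDR than on array 2, by 1.91 and 2.14, and PRPF19 spread by 2.20 within F1 GDR, and none of their differences passed the test.

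Of 13 hnRNP genes 3 were called, 2 higher and 1 lower in F1 GCs than Ov GDR (15.4% and 7.69%, beside 12.2% and 10.1% of the 13009 genes). The median of the 13 in that comparison was 0.67 and leans on array 1 of Ov GDR. It is the difference of HNRNPH1, which measured 9.72 and 10.6 in Ov GDR and 10.8 and 10.9 in F1 GCs. HNRNPA2B1, a binder of nascent and transported RNA, measured 7.56 and 7.41 in Ov GDR, 9.27 and 9.30 in F1 GDR and 9.31 and 9.60 in F1 GCs. It was higher than Ov GDR by 1.80 ± 0.20 in F1 GDR (3.49-fold, adjusted p = 0.034) and by 1.97 ± 0.20 in F1 GCs (adjusted p = 0.0079). All of its 4 probe sets had positive differences in both, of which 1 was called in the first and 3 in the second. For F1 GDR against F1 GCs 1 of the 4 was called lower, and their differences ran from -1.53 to 0.49. HNRNPR measured 7.42 and 7.94, 8.53 and 8.89, and 9.03 and 9.18, and F1 GCs exceeded Ov GDR by 1.43 ± 0.28 (adjusted p = 0.038). HNRNPU, a scaffold of nuclear RNA, differed by at most 0.18 in any comparison by its brightest probe set, with values of 9.67 to 10.1. None of its 3 probe sets was called, but their differences reached -1.10 for F1 GDR against Ov GDR and -0.97 for F1 GDR against F1 GCs. HNRNPA1, a repressor of exon inclusion, had 10.9 and 11.2 in Ov GDR, 11.9 and 11.0 in F1 GDR and 9.91 and 9.64 in F1 GCs by its brightest probe set, and its difference of 1.68 between F1 GDR and F1 GCs missed the threshold (adjusted p = 0.059). HNRNPH3, HNRNPDL and HNRNPLL were lower on array 1 of Ov GDR than on array 2 by 2.30, 3.60 and 2.29 and were not called.

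For HNRNPD, which binds AU-rich messages, the direction depended on the probe set. The brightest measured 10.2 and 9.80 in Ov GDR, 9.52 and 9.68 in F1 GDR and 9.11 and 9.00 in F1 GCs, and was called lower in F1 GCs than Ov GDR (-0.94 ± 0.19, adjusted p = 0.040). The other, much dimmer, measured 2.69 and 2.80, 4.58 and 3.98, and 5.81 and 5.60. It was at background on both Ov GDR arrays and was called higher in F1 GCs, at least 5.92-fold against that background (adjusted p = 0.0062). HNRNPD was the only one of the 62 genes with calls in both directions in 1 comparison. Other genes had probe sets that parted without opposite calls. Of the 5 probe sets of HNRNPA1, 3 were called higher in F1 GCs than Ov GDR, by up to 4.45, while the brightest had -1.26. One of the 4 probe sets of SRSF10, a regulator that can repress splicing, was 2.82 and 3.03 in Ov GDR, 4.81 and 3.77 in F1 GDR and 7.74 and 7.86 in F1 GCs (measured difference 4.88 for F1 GCs against Ov GDR, adjusted p = 0.0054), with array 1 of Ov GDR at background. This probe set was also called lower in F1 GDR than F1 GCs (-3.51), and the other 3 were not called. The second probe set of HNRNPDL, a neighbour of HNRNPD in RefSeq, had 3.88 and 3.50, 7.22 and 7.13, and 8.17 and 8.06, and was called higher than Ov GDR in F1 GDR (3.49, adjusted p = 0.019) and in F1 GCs (4.42, adjusted p = 0.0035). Over all 163 probe sets, 5 were higher and 0 lower in F1 GDR against Ov GDR (1.63% and 0.234% of the 38439 probe sets), 7 and 3 in F1 GDR against F1 GCs (2.1% and 3.09%), and 16 and 15 in F1 GCs against Ov GDR (8.54% and 6.51%).

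**Figure D5:**
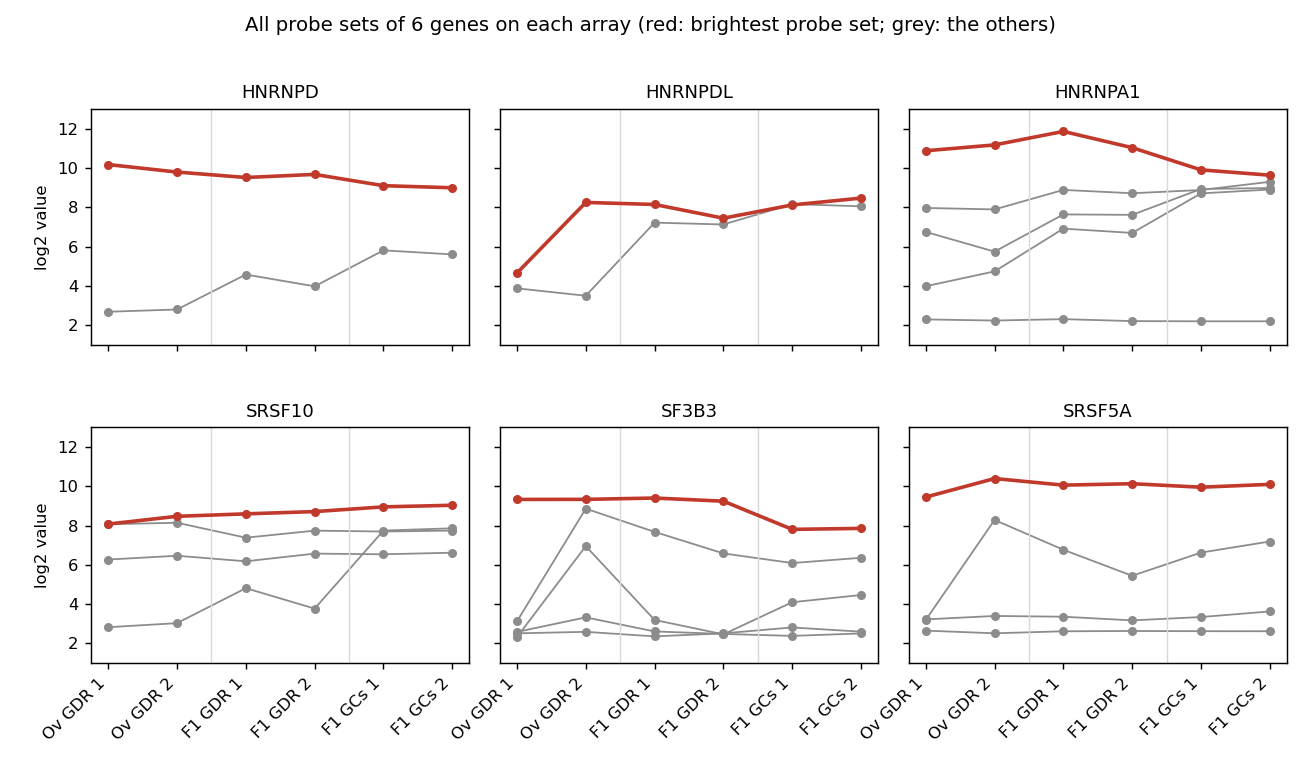
Each line is 1 probe set of the gene named above the panel, with the log2 value on each of the 6 arrays, and the red line is the brightest probe set, which stands for the gene elsewhere. In HNRNPD the lines converge from Ov GDR to F1 GCs, in SRSF10 and HNRNPDL a grey line climbs by over 4 towards F1 GCs, and in SF3B3 and SRSF5A dimmer probe sets are low on array 1 of Ov GDR and high on array 2 (3.12 and 8.86 for the second probe set of SF3B3).

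The Lsm family joins nuclear and cytoplasmic rings with proteins of RNA granules, and 2 of 12 genes were called. Both were lower in F1 GCs than Ov GDR (16.7%, beside 10.1% of the 13009 genes). LSM3 belongs both to the ring on U6 and to the ring that starts decapping in the cytoplasm. It measured 9.82 and 9.96 in Ov GDR, 9.47 and 9.36 in F1 GDR and 8.41 and 8.27 in F1 GCs. By this probe set it was lower in F1 GCs than Ov GDR (-1.55 ± 0.16, 2.94-fold, adjusted p = 0.0084). It was also higher in F1 GDR than F1 GCs by 1.08 ± 0.16 (adjusted p = 0.041). The other of its 2 probe sets was not called, with differences of -0.03 and 0.007 in these comparisons. LSM12 measured 6.84 and 6.11, 4.94 and 4.42, and 4.16 and 4.37, and was lower in F1 GCs than Ov GDR (-2.21 ± 0.37; 4.61-fold, adjusted p = 0.026). Its other probe set spread from 3.34 to 6.67 between both Ov GDR arrays. LSM6, which both rings share as well, had 9.30 and 9.37, 8.89 and 9.71, and 8.07 and 7.72, a difference of -1.44 between F1 GCs and Ov GDR that missed the threshold (adjusted p = 0.056). LSM8, particular to the U6 ring, and LSM1, particular to the decapping ring, had differences of -0.83 ± 0.24 and 0.94 ± 0.40 in that comparison, neither called (adjusted p = 0.086 and 0.17). LSM14A, a granule protein that represses translation, was between 8.98 and 10.4, and LSM14B was 4.03 on array 1 of Ov GDR and 6.20 on array 2, against 4.06 to 4.40 elsewhere. Of the proteins on the histone particle U7, LSM10 had 5.07 and 6.20 in F1 GDR and 3.49 to 4.33 elsewhere without a call. LSM11 lay between 3.10 and 3.23 on every array by its brightest probe set, near background. Another of its 3 probe sets was called higher in F1 GDR (mean 2.94) than F1 GCs (2.61, at background), with an adjusted p of 0.038.

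From 8 lists of genes that work beside these families, 111 genes were measured, and 2 of them were higher and 0 lower in F1 GDR than Ov GDR, 6 higher and 2 lower in F1 GDR than F1 GCs, and 10 higher and 16 lower in F1 GCs than Ov GDR. These are 1.8% and 0%, 5.41% and 1.8%, and 9.01% and 14.4% of them, beside 3.05% and 0.2%, 4.34% and 3.34%, and 12.2% and 10.1% of the 13009 genes. At an unadjusted p under 0.05 in limma, 15 were higher and 9 lower in the first of these (21.6%, beside 22.5% of the 13009). In the second 29 were higher and 9 lower (34.2%, beside 26.9%), and in the third 17 were higher and 33 lower (45%, beside 41.5%). Their median differences were -0.05, 0.38 and -0.39. Of the 14 genes for assembly and import of snRNPs, PRMT5, which methylates Sm proteins, was higher in F1 GDR (7.88 and 7.37) than Ov GDR (4.92 and 4.30, adjusted p = 0.049) and F1 GCs (5.52 and 4.98, adjusted p = 0.049). It alone of the 14 was called in both comparisons (7.14%, beside 3.05% and 4.34% of the 13009 called higher). In F1 GCs against Ov GDR, GEMIN4 was higher and TGS1 lower (7.14% each, beside 12.2% and 10.1%). Of 17 genes of the Prp19 complex and catalytic activation, CWC25, a factor of the first catalytic step, was also higher in F1 GDR, by 2.96 than Ov GDR (adjusted p = 0.035) and by 2.31 than F1 GCs (adjusted p = 0.037). Of these 17, 1 was called higher in the first of these comparisons and 3 in the second (5.88% and 17.6%, beside 3.05% and 4.34%). Of 32 regulators of splice site choice, 5 were higher and 4 lower in F1 GCs than Ov GDR (15.6% and 12.5%, beside 12.2% and 10.1%), among them MBNL1, a switch of alternative exons (4.27, adjusted p = 0.0097), and SRPK1, a kinase of SR proteins (-1.09, adjusted p = 0.037). SLBP, which binds the stem-loop of histone messages next to U7, was 8.47 and 8.37 in Ov GDR and 4.26 and 2.60 in F1 GCs, of which the latter was at background. The measured difference of F1 GCs from Ov GDR was -4.98 (adjusted p = 0.012). With only the value at background raised to it, the group means were at least 29.8-fold apart, and this does not hold for array 1 of F1 GCs alone. EIF4ENIF1, a partner of the decapping ring, was 11.9 and 11.2 in Ov GDR and 8.54 and 7.94 in F1 GCs (-3.26, adjusted p = 0.0084). Of 10 genes of the exon junction complex only EIF4A3, its anchor, was called, lower in F1 GCs than Ov GDR (-0.87, adjusted p = 0.047). This is 10% of them, beside 10.1% of the 13009 genes called lower.

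When the arrays were set to equal means of ACTB, GAPDH and EEF1A1, the median of all probe sets moved by -0.46 in F1 GDR against Ov GDR, by -0.03 in F1 GDR against F1 GCs and by -0.43 in F1 GCs against Ov GDR. EEF1A1 carried most of this scaling, with differences of 1.14 and 1.57 for F1 GDR and F1 GCs against Ov GDR, beside 0.05 and -0.31 for ACTB and 0.17 and 0.02 for GAPDH, and it was 1.23 lower on array 1 of Ov GDR than on array 2. With this scaling 4 of the 62 genes were higher and 2 lower in the first comparison, beside 4 and 0 as deposited (3.69% and 2.84% of the 13009 genes), and 3 were higher and 19 lower in the third, beside 6 and 12 (9.42% and 14.8%). No call changed its direction. Since every gene of a comparison is moved by the same amount, the median of the hnRNP genes in F1 GCs against Ov GDR was then 0.25, and that of the SR proteins went from 0.10 to -0.32. Both medians still include array 1 of Ov GDR.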

How the data were processed

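Values were read from the series' table of 38535 probe sets on 6 arrays, in which the authors deposited log2 expression values made with gcrma (background correction by probe sequence, quantile normalization over all arrays, 1 value per probe set), used without further scaling. The version of gcrma is not given in the sources used here, and F1 GDR array 2 has 2 decimals. Leaving out 96 Affymetrix controls, 38439 probe sets were fitted with limma 3.58.1 in R 4.3.3, all 6 arrays in 1 two-sided model with a mean-variance trend (3 residual and 1.66 prior degrees of freedom), with Benjamini-Hochberg adjustment over all probe sets. An exact permutation test of 2 arrays against 2 reaches 0.333 at best, and precision is limited by the number of arrays. Symbols came from the platform's annotation, and all 62 genes matched RefSeq by Entrez ID. A group was at background where both arrays were at or under the highest of 23 control probe sets. Named genes are all members called, per role those with the brightest and the dimmest probe set, those at background in some but not all groups and those with opposite calls. Genes that missed the threshold, lay flat or had unequal arrays or probe sets were named after their values were seen. The members, roles and lists were chosen with earlier results of these data known. The paper's own test, a t-test with Bonferroni adjustment, shares the variance within subgroups of genes and was not run here. A plain t-test of each gene was run instead, among 10 alternatives beside leaving out each array. The model was checked on simulated data in which all groups had the same spread, which does not cover the wider spread of Ov GDR.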

Additional observations from a re-analysis of the deposited data

How the results depend on the processing

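Counts of genes called are given in the order F1 GDR against Ov GDR, F1 GDR against F1 GCs and F1 GCs against Ov GDR, and were 4, 6 and 18 as reported. A fit of only the 4 arrays compared gave 0, 10 and 9. A replicate block for the suffix gave 0, 0 and 10, of which the 10 were among the 18. The deviations of arrays with the same suffix correlated at -0.15, 0.17 and -0.15. Each group gives only 1 such deviation, so this cannot decide whether the suffix pairs the arrays, and they were fitted as unpaired. Probe sets with a group mean of at least 4 gave 12 in the second comparison. A plain t-test of each gene, which unlike the paper's test shares no variance between genes, called 0, 0 and 3 with Benjamini-Hochberg adjustment. With Bonferroni adjustment it called 0, 0 and 0, and limma with Bonferroni adjustment called 0, 0 and 0 as well. Leaving out 1 array gave 0 to 19, 0 to 10 and 3 to 30; with 1 array left, a group is taken to vary like the others. The other alternatives stayed within 1.5 times of each count. Among the 28 calls only that of HNRNPD turned, from -0.94 to 1.01 with the mean of its probe sets and to 2.97 with the brightest one not ending in _s_at or _x_at, and its dimmer probe set, on which both values rest, was at background in Ov GDR. With the mean of all probe sets 13 of the 28 calls were lost, and of the 6 between F1 GDR and F1 GCs only that of SRSF1 was kept. Values near background, as for SRSF5 in Ov GDR, limit the size of a fold.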
